A study of Homo sapiens with 14 samples.

Results

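Chromatin remodellers use ATP to slide, evict or exchange nucleosomes, histone lysine enzymes add or remove acetyl and methyl groups on histone tails, and bromodomain proteins bind acetylated lysines. The genes of these proteins were described here for binding of SKI and RUNX1 in HL60 cells, a human acute myeloid leukaemia line. They were the protein-coding genes that a peak list names as next gene and whose symbol begins with SMARC, SETD, KDM or BRD, or with CHD or KAT and a digit. KDM1A, CHD4 and KDM5D were left out. Of 13808 protein-coding genes with a peak in any list, the rule found 59: 12 SMARC, 8 CHD, 7 BRD, 11 SETD, 14 KDM and 7 KAT genes. SKI is a corepressor that reaches DNA through partners such as the SMAD proteins and recruits histone deacetylase complexes. RUNX1 binds DNA directly, is required for blood stem cell formation, and works with lysine acetyltransferases.

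ChIP-seq peak lists of 4 of the 14 samples were used, and the other 10 samples were not analysed here. SKI was mapped in unmodified (WT) HL60 cells, with replicates 1 and 2, and in 1 sample of CRISPR/Cas9 control HL60 cells, and RUNX1 was mapped in 1 sample of WT cells. None of the 4 samples is labelled as SKI-deleted, and those of SKI-deleted cells were not analysed here, so signal of the SKI antibody without SKI was not measured. Peak lists hold no expression values, so the cell line label could not be checked against marker genes and binding could not be set beside RNA. The lists held 54841 peaks (WT replicate 1), 14431 (WT replicate 2), 14019 (control cells) and 5581 (RUNX1), with a median of 97, 56, 61 and 56 tags per peak in that order. Each peak carries a count of tags, which is not scaled to depth, and a fold enrichment over background, both the authors' own values. Tags and fold enrichment are therefore compared only within a list, by the rank of the peak, and library depth is unknown. Every list is a single sample, no test over samples could be made, and the intervals given cover counting error only. Positions are on hg19.

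Here and below, all protein-coding genes, or all genes, are the 13808 with a peak in any list. A gene without a peak is in neither set, so a high share in the longest list follows in part from the rule. All 59 genes had a peak in WT replicate 1 (98.0% of all protein-coding genes did), where 181 peaks named them. In WT replicate 2, 59 peaks named 32 of them (45.9% of all genes), and in control cells 55 peaks named 29 (44.4%). RUNX1 had 12 peaks, which named 11 genes (17.1% of all genes). SKI peaks of different lists that overlap by 1 bp or more make up a site, and a site with a peak of all 3 lists is called shared. Shared SKI sites lay at 26 of the 59 genes (44.1%), beside 35.9% of all protein-coding genes. A joint site is a shared SKI site that overlaps a RUNX1 peak, and 7 genes (11.9%) had one, beside 11.0% of all genes. Those 26 genes held 37 shared sites, of which 8 were joint. Every list was also held to its 5581 best peaks by −log10 p, then by fold enrichment. With these, 13 genes (22.0%, beside 12.8% of all genes) had a shared site and 3 (5.08%, beside 6.55%) a joint one.

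**Figure D1:**
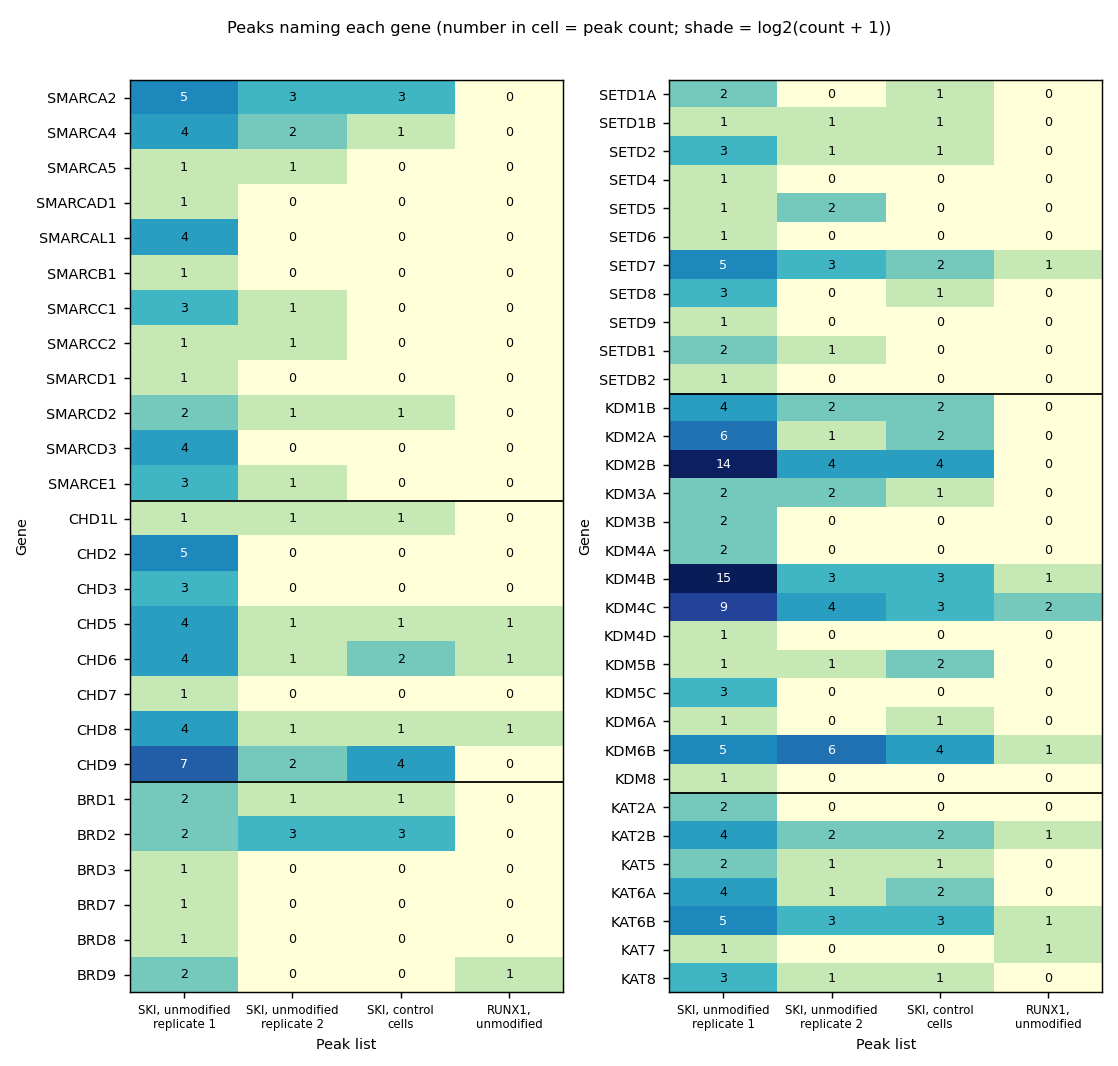
Number of peaks naming each of 58 of the 59 genes (rows, by family, separated by lines) in the 4 peak lists (columns); the number is the count and the shade its log2 after adding 1. KDM4B, KDM2B and KDM4C have the most peaks in WT replicate 1, with 15, 14 and 9, and the RUNX1 column holds a peak for 11 genes.

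By family, shared SKI sites were found at 8 of 14 KDM genes, 5 of 7 KAT genes and 5 of 8 CHD genes. They were found at 4 of 11 SETD genes, 2 of 7 BRD genes and 2 of 12 SMARC genes. Over all protein-coding genes the share was 35.9%. The families are small, and a difference between them was not tested. The demethylase genes held 15 of the 37 shared sites and 66 of the 181 peaks in WT replicate 1. Of these peaks KDM4B had 15, KDM2B 14 and KDM4C 9. Genes of the set with a shared site held a median of 1, as did all protein-coding genes with one, where the most was 13. Among all 59 genes, 18 had 1 shared site, 5 had 2 (CHD9, KAT6B, KDM4C, SETD7 and SMARCA2) and 3 had 3 (KDM2B, KDM4B and KDM6B). The other 33 genes had none. In this group 24 genes had SKI peaks in WT replicate 1 alone. Each had at least 1 peak of the TSS class there, as did 57 of all 59 genes. The share over all protein-coding genes was not counted. Genes with peaks in a single SKI list thus made up 40.7% of the 59, beside 45.5% of all protein-coding genes. The best fold enrichment of these 24 genes in WT replicate 1 ranged from 5.5 (BRD9) to 54.05 (CHD7) with a median of 17.2. Leaving out control cells gave a shared site at 32 genes (54.2%, beside 46.7% of all genes), leaving out WT replicate 2 gave 29 (49.2%, beside 45.2%), and leaving out WT replicate 1 gave 26 (44.1%, beside 35.1%).

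Shared sites of these genes ranked high in the lists. Their median rank by fold enrichment was within the strongest 10.6% of WT replicate 1, 18.3% of WT replicate 2 and 30.3% of control cells, beside 14.1%, 41.2% and 45.0% for the shared sites of all protein-coding genes. Of the 37 sites, 18 were among the strongest 10% of WT replicate 1, 10 among those of WT replicate 2 and 7 among those of control cells, beside 2419, 835 and 787 of the 6363 shared sites of all protein-coding genes. In all 3 lists at once 6 sites were, and they belong to KAT6A, KDM6B (2 sites), CHD9 (2 sites) and KDM5B. By rank number, in which the longest list weighs most, the last was the promoter site of KDM4C, at 61.7%, 76.5% and 83.1% in WT replicate 1, WT replicate 2 and control cells. As a percent of the list, the worst rank was that of the exonic KDM2B site, at 89.0% in control cells.

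**Figure D2:**
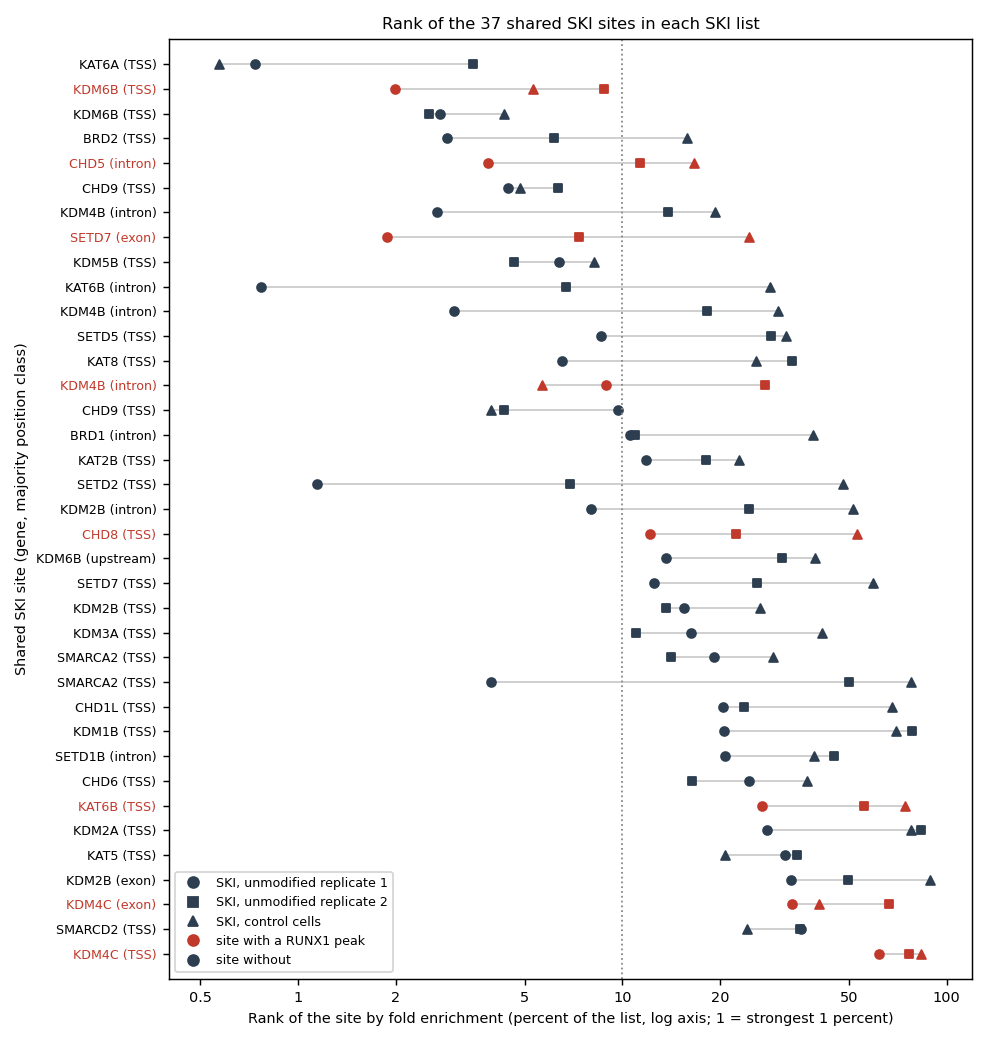
Rank of each of the 37 shared SKI sites by fold enrichment, as a percent of the list on a log axis, in WT replicate 1 (circles), WT replicate 2 (squares) and control cells (triangles); sites are ordered by their worst rank as a number, sites with a RUNX1 peak are red, and the dotted line marks 10%. The KAT6A site lies at 0.738%, 3.47% and 0.571% in that order, and the red sites are spread from the second row to the last.

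The TSS class was the most frequent position of the SKI peaks of these genes. The authors' TSS class, which their headers set by a fixed distance and which can hold a summit somewhat farther from the start, held 50.8% of their peaks in WT replicate 1 (95% Wilson interval 43.6 to 58.0), 67.8% in WT replicate 2 (55.1 to 78.3) and 70.9% in control cells (57.9 to 81.2). Over all protein-coding genes the shares were 44.5%, 61.8% and 58.1%. Intronic peaks made up 34.3%, 23.7% and 21.8% of the peaks of the 59 genes in the same lists, and intergenic ones 4.97%, 0% (0 of 59 peaks, upper Wilson bound 6.11%) and 1.82%, beside 14.0%, 9.55% and 10.1% over all protein-coding genes. RUNX1 peaks of these genes were of the TSS class in 6 of 12 cases (50%, 25.4 to 74.6), beside 952 of 3176 over all protein-coding genes, with 4 in introns and 2 in exons. With the deposited distance held to 1000 bp in place of the class, the shares for the 59 genes were 47.0%, 64.4% and 67.3% in the SKI lists and 33.3% for RUNX1. Within the TSS class, the deposited distance to the start was within 100 bp in 49 of 92 peaks of WT replicate 1, 20 of 40 of WT replicate 2 and 21 of 39 of control cells, beside 48.8%, 51.3% and 41.5% over all protein-coding genes. None of the 6 RUNX1 peaks of that class had a distance within 100 bp (upper Wilson bound 39.0%), beside 30.6% over all protein-coding genes. The median distance of these 6 peaks was 891 bp, beside 262.5 bp for all protein-coding genes. A shared site of the TSS class was present at 22 of the 59 genes (37.3%), beside 27.4% of all genes.

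**Figure D3:**
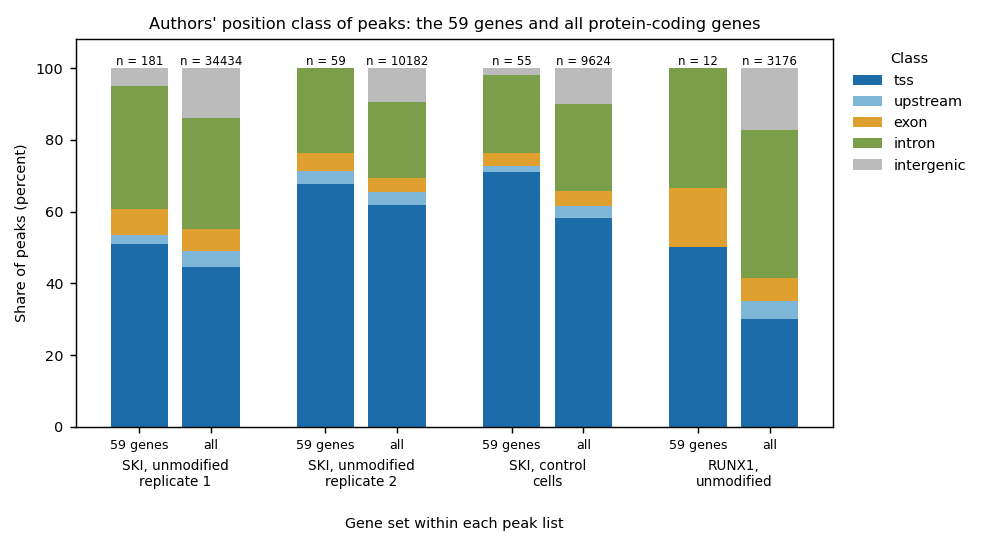
Share of peaks in the authors' 5 position classes, in percent, for the 59 genes (left bar of each pair) and all protein-coding genes (right bar) in each of the 4 lists, with the number of peaks above each bar. The TSS class holds 50.8%, 67.8% and 70.9% of the SKI peaks and 50% of the RUNX1 peaks of the 59 genes.

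Promoter sequence is shown for the 4 genes with the best-ranked shared site whose strongest SKI peak was placed by the deposited distance between 250 bp before and 50 bp after a start in every SKI list, among genes with a single RefSeq promoter. The deposited distances were -58, -57 and -63 bp (KDM5B), -1, -4 and -49 bp (KAT2B), -28, -4 and 1 bp (SETD2), and -49, -2 and -11 bp (KAT5) in WT replicate 1, WT replicate 2 and control cells. The sequences are the 250 bases before the RefSeq start on GRCh38.p14, written along the gene's strand. They are chr1:202808422-202808671, minus strand (KDM5B), chr3:20040196-20040445, plus strand (KAT2B), chr3:47164114-47164363, minus strand (SETD2), and chr11:65712002-65712251, plus strand (KAT5). The RefSeq start can differ from the transcript start of the lists, which use another build. Capitals mark matches on either strand to the RUNX core TGTGGT or TGCGGT, the SMAD box CAGAC, the ETS core CGGAAG and the GC box GGGCGG.
KDM5B: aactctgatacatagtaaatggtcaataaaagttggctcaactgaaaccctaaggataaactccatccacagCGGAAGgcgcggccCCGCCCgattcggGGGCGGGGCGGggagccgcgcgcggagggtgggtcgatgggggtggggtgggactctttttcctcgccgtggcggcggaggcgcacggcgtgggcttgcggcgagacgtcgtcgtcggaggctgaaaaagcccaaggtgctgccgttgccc
KAT2B: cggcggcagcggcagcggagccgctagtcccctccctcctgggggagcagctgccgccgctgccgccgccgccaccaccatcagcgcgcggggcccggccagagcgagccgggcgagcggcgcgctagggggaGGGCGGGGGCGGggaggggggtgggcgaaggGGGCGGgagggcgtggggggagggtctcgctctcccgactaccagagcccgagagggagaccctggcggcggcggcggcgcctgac
SETD2: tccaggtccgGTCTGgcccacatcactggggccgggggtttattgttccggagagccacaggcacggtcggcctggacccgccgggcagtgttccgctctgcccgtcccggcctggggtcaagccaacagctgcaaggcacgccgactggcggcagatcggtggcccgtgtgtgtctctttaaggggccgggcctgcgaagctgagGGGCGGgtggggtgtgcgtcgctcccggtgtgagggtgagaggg
KAT5: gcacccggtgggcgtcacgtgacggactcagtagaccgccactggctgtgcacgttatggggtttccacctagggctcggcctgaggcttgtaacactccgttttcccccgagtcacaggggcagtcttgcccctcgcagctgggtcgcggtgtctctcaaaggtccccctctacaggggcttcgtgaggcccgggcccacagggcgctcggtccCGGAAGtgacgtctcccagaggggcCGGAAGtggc

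No RUNX core lies in these 4 stretches, SETD2 holds 1 SMAD box and 1 GC box, KDM5B holds 1 ETS core and 3 GC boxes, KAT2B holds 3 GC boxes and KAT5 2 ETS cores. The ETS core and the GC box were added after these sequences had been seen. RefSeq held 84 promoters, each running from 250 bases before to 50 after a start, for 49 of the 59 genes. A RUNX core was present in 16 of the 84 (19.0%), beside 19.6% of the 35116 promoters of the table, and a SMAD box in 38 (45.2%), beside 45.3%. The ETS core was in 28 (33.3%), beside 19.5%, and the GC box in 55 (65.5%), beside 45.0%. Matches of the last pair can overlap, and a match is only a run of letters, not a bound site. The 35116 promoters belong to 27305 genes, whereas 13808 protein-coding genes had a peak. This background is thus not the one used for peaks, and no matched one was counted.

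Among the SWI/SNF (BAF) genes, the ATPase gene SMARCA2 (BRM) had 2 shared sites, the most of the family. A site at chr9:2014469-2018816 had fold enrichments of 39.96 and 20.84 in WT replicates 1 and 2 and 16.86 in control cells, with 1425, 97 and 317 tags. A downstream start of the gene, at chr9:2156356-2158894, had fold enrichments of 83.48, 10.34 and 7.75. Its rank in the lists was 3.94% in WT replicate 1, 50.1% in WT replicate 2 and 77.8% in control cells. SMARCA4 (BRG1), the alternative ATPase of the same complexes, had peaks in all 3 SKI lists but no shared site. Its 2 peaks of WT replicate 2 and its 1 peak of control cells lay at different places. SMARCD2, a subunit needed for granulocyte maturation, had a shared site at its start (chr17:61918805-61921343) with fold enrichments of 25.18, 12.83 and 18.63. The subunit genes SMARCC1, SMARCC2 and SMARCE1 had a TSS peak in both WT lists and none in control cells, with fold enrichments in WT replicate 2 of 4.32, 6.52 and 4.26, which ranked at 98.4%, 81.7% and 98.6%. SMARCA5, the ISWI ATPase gene, had the same pattern with 5.5. SMARCB1, SMARCD1, SMARCD3, SMARCAD1 and SMARCAL1 had SKI peaks in WT replicate 1 alone. None of the 12 SMARC genes had a RUNX1 peak, beside 17.1% of all protein-coding genes. With so few genes a difference was not tested.

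CHD9, of the CHD6 to CHD9 subfamily of remodellers, held 2 of the strongest shared sites. Upstream, chr16:53132322-53134180 had fold enrichments of 80.44 and 30.24 in WT replicates 1 and 2 and 42.07 in control cells, with 1090, 282 and 315 tags. The other, chr16:53163876-53166143, had fold enrichments of 59.12, 35.74 and 45.86. Neither carried RUNX1, and both lay within 120 bp of a start. CHD5, a NuRD ATPase gene known mainly from neurons, had no TSS peak but a joint intronic site (chr1:6230372-6232017). There SKI fold enrichments were 84.2 and 23.01 in WT replicates 1 and 2 and 22.76 in control cells, with 650, 128 and 161 tags, and RUNX1 had 16.62 with 41 tags. At CHD8, a repressor of beta-catenin targets, the joint site (chr14:21851394-21853969) lay 973 to 996 bp after a start, and SKI had fold enrichments of 52.77 and 16.65 in WT replicates 1 and 2 and 11.2 in control cells. RUNX1 had 11.2 there with 47 tags. The same broad site held SKI peaks named for SUPT16H and RP11-524O1.4. CHD8 peaks at other starts (chr14:21904902-21905809, chr14:21905816-21906558 and chr14:21923822-21924964) were in WT replicate 1 alone and without RUNX1. CHD6 had a shared promoter site without RUNX1 (33.65, 19.41 and 14.37) and, in WT replicate 1 alone, a SKI peak under its RUNX1 peak of 25.3 in an intron. CHD1L, a remodeller activated by poly(ADP-ribose), had a shared promoter site of 38.34, 16.18 and 9.04. CHD2, CHD3 and CHD7 had SKI peaks in WT replicate 1 alone, with best values of 30.96, 13.75 and 54.05.

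Of the bromodomain genes, BRD2 carried the strongest site. BRD2 and BRD3 encode BET proteins, which bind acetylated histones and recruit elongation factors. The BRD2 site (chr6:32934417-32941045) was 6629 bp wide, the only shared site of these genes above 5000 bp, and took in peaks named for HLA-DMA and BRD2-IT1. Its fold enrichments were 91.81 and 30.73 in WT replicates 1 and 2 and 23.26 in control cells, and its 2111 tags in WT replicate 1 were the most of any peak of the 59 genes. BRD3 had 1 peak, in WT replicate 1, with a fold enrichment of 22.92. BRD1, a scaffold of acetyltransferase complexes, had an intronic shared site (chr22:50181618-50184464) with 56.67, 23.41 and 14.02 and 1211, 268 and 208 tags. At BRD9, a subunit of a non-canonical BAF complex, RUNX1 had a fold enrichment of 37.2 with 128 tags, ranking at 15.5% of its list. The SKI peaks at BRD9 were weak, with a best value of 5.5 in WT replicate 1, at 98.4% of that list. The BRD9 SKI peak that overlapped RUNX1 was the other one, with 4.67, at 99.5% of the same list. The other SKI lists had no peak at BRD9. BRD7 and BRD8 had 1 peak each, in WT replicate 1.

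Methyltransferase genes had shared sites at SETD2, SETD7, SETD5 and SETD1B. SETD2, which trimethylates H3K36, had a promoter site (chr3:47204340-47206988) with fold enrichments of 114 and 29.19 in WT replicates 1 and 2 and 12.13 in control cells, with 845, 143 and 146 tags. The rank of that site was 1.14% and 6.87% in the WT lists and 47.8% in control cells. SETD7, which monomethylates H3K4 and other proteins, had the only joint site of the family, in an exon (chr4:140449405-140450353). SKI fold enrichments there were 102 and 28.25 in WT replicates 1 and 2 and 18.47 in control cells, and RUNX1 had 19.84 with 56 tags. The SETD7 promoter site (chr4:140476059-140479897) had 51.99, 15.4 and 10.26 and no RUNX1. The shared site at SETD5 (chr3:9437540-9440954) had 62.64, 14.6 and 15.86, and its strongest peaks in WT replicate 1 and in control cells were named for the antisense gene SETD5-AS1. SETD1B, a COMPASS H3K4 methyltransferase, had a site inside the gene (38.1, 11.0 and 13.86), whereas its paralogue SETD1A had TSS peaks in WT replicate 1 and control cells of 19.25 and 9.56. SETD8, the H4K20 monomethylase, had the same pattern with 27.9 and 9.23, and SETDB1, an H3K9 methyltransferase, had TSS peaks in the WT lists of 33.12 and 9.43. SETD4, SETD6, SETD9 and SETDB2 had 1 peak each, in WT replicate 1.

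KAT6A (MOZ), an acetyltransferase that is a partner of RUNX1 and is fused to other genes in some myeloid leukaemias, had the best-ranked site of all 59 genes. The site (chr8:41908113-41910389) lay at the promoter, with fold enrichments of 124 and 38.49 in WT replicates 1 and 2 and 95.65 in control cells and 893, 151 and 289 tags. It was the 405th, 501st and 80th strongest peak of these lists, and no RUNX1 peak overlapped it. Its paralogue KAT6B (MORF) had a joint promoter site (chr10:76584048-76587405) with 31.39, 9.56 and 8.22, where RUNX1 had 26.0 with 47 tags. A stronger intronic site of KAT6B (chr10:76623122-76623939) had 123, 29.45 and 16.99 without RUNX1. KAT2B (PCAF) had a shared promoter site (53.44, 18.51 and 19.12), and its RUNX1 peak of 18.91 lay in an intron with SKI peaks in WT replicate 1 and control cells (47.48 and 20.93) but none in WT replicate 2. KAT5 (TIP60) had a shared promoter site with 27.5, 13.02 and 20.2. KAT8 (MOF), the H4K16 acetyltransferase, had a shared site with 70.49, 13.31 and 17.95, at -1448, -1434 and -1413 bp from a start. That site was of the TSS class in WT replicate 1 and control cells and intronic in WT replicate 2. The peak at another KAT8 start (chr16:31128532-31129662, -70 bp) was in WT replicate 1 alone. KAT7 (HBO1) had a RUNX1 peak of 19.7 at its promoter, over a SKI peak of 14.77 that was present in WT replicate 1 alone. KAT2A (GCN5) had 2 SKI peaks in WT replicate 1 alone, the best at 16.84.

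The demethylase genes with most shared sites were KDM6B, KDM4B and KDM2B. KDM6B (JMJD3) removes methyl groups from H3K27 and is induced by inflammatory signals in macrophages. Its 3 shared sites lay side by side from chr17:7737514 to 7748542. The middle one (chr17:7741379-7743078) was joint, with SKI fold enrichments of 100.67 and 25.92 in WT replicates 1 and 2 and 40.17 in control cells, 1102, 167 and 183 tags, and a RUNX1 fold enrichment of 19.05 with 56 tags. The one farthest downstream (chr17:7744327-7748542) had 93.3, 43.51 and 44.4 and no RUNX1. The paralogue KDM6A (UTX) had TSS peaks in WT replicate 1 and control cells of 17.19 and 13.38. KDM4B, which demethylates H3K9, had the strongest RUNX1 peak of the 59 genes, in an intron. RUNX1 fold enrichment there was 82.42 with 180 tags, at 2.17% of its list, over a SKI site (chr19:5138895-5140088) with 61.56 and 14.92 in WT replicates 1 and 2 and 38.99 in control cells. The other shared sites of KDM4B (chr19:4975771-4976973 and chr19:5077434-5079064) were also inside the gene and had SKI values of 90.53, 18.44 and 16.41, and of 93.67, 21.07 and 21.2. KDM4C, of the same subfamily, had joint sites at its promoter and in an exon, with RUNX1 fold enrichments of 17.45 and 20.89. KDM4A and KDM4D had peaks in WT replicate 1 alone.

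KDM2B, a CpG-binding protein that brings a Polycomb complex to CpG islands, had 14 peaks in WT replicate 1 and 4 in each other SKI list. None of its 3 shared sites carried RUNX1. The one of the TSS class (chr12:121973081-121976618) had fold enrichments of 46.01 and 21.08 in WT replicates 1 and 2 and 17.69 in control cells. A site at another start of KDM2B (chr12:122016800-122019180) had 21.28 in WT replicate 1 and 7.94 in control cells, with no peak in WT replicate 2. KDM2A had a shared promoter site with lower ranks (30.45, 6.35 and 7.75). KDM5B, which removes H3K4 methylation, had a single shared site, at its promoter (chr1:202774997-202777949), with 70.97, 34.99 and 32.48 and 943, 115 and 136 tags. Its X-linked paralogue KDM5C had 3 peaks in WT replicate 1 alone. KDM3A, an H3K9 demethylase, had a shared promoter site with 44.61, 23.37 and 13.42, and KDM3B had 2 peaks in WT replicate 1 alone. KDM1B, a flavin-dependent H3K4 demethylase, had a shared promoter site of 38.22, 6.87 and 8.82. KDM8 had 1 peak, in WT replicate 1.

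Each of the 12 RUNX1 peaks that name one of the genes overlapped a SKI peak of at least 1 list. Over all protein-coding genes, 2360 were named by a RUNX1 peak and 2362 had a SKI site of any list with one. These counts need not hold the same genes, and the share of all RUNX1 peaks that overlap a SKI peak was not counted. Of the 12 peaks 8 lay in a site of all 3 SKI lists, 1 (KAT2B) in a site of 2 lists and 3 (BRD9, CHD6 and KAT7) in a site of WT replicate 1 alone. RUNX1 was present at 3 of 125 SKI sites of 1 list (2.40%), 1 of 20 of 2 lists (5.0%) and 8 of 37 of 3 lists (21.6%, 95% Wilson interval 11.4 to 37.2), beside 2.55%, 12.3% and 28.3% for the sites of all protein-coding genes. RUNX1 fold enrichment at the 8 joint sites was highest at KDM4B (82.42), then 26.0 at KAT6B, 20.89 and 17.45 at the KDM4C sites, 19.84 at SETD7, 19.05 at KDM6B, 16.62 at CHD5 and 11.2 at CHD8. Within each joint site the nearest SKI summit was a median of 38.5 bp from the RUNX1 summit in WT replicate 1, 53.5 bp in WT replicate 2 and 48 bp in control cells. Signed along the transcript strand, SKI minus RUNX1, the offset at KDM6B was -2, -6 and -1 bp in these lists and at KDM4B -12, -4 and 2 bp. The promoter site of KDM4C was the exception in all lists, with offsets of -1387, -451 and -677 bp, and at KAT6B they were -122 and -137 bp in the WT lists and 803 bp in control cells. Deposited distances to a start are only roughly comparable between lists. At the joint KDM6B site, where the SKI summits lie within 6 bp of the RUNX1 summit, all 4 peaks name 1 transcript, yet the distances were -949 and -1137 bp in WT replicates 1 and 2, -945 bp in control cells and -1116 bp for RUNX1.

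**Figure D4:**
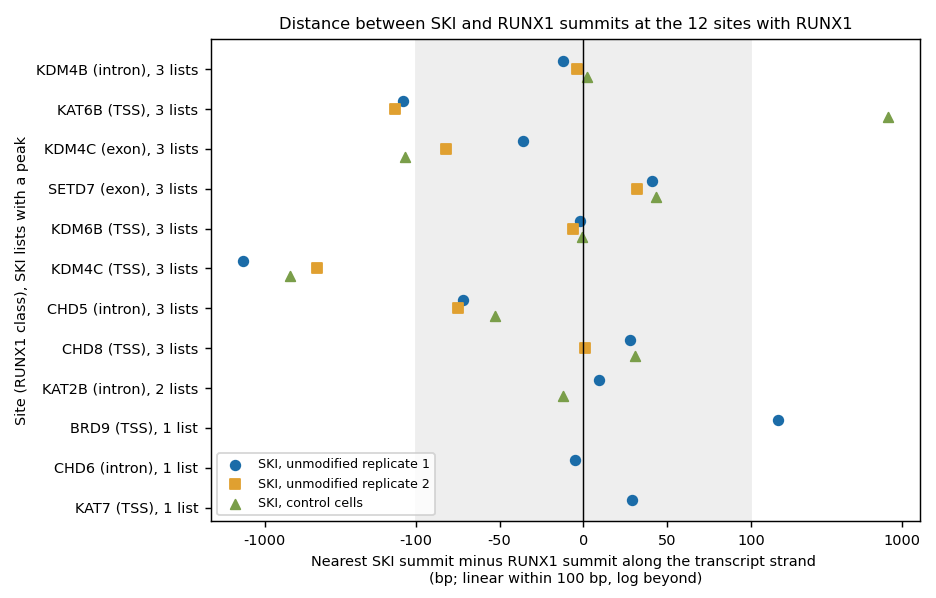
Position of the nearest SKI summit relative to the RUNX1 summit, in bp along the transcript strand, at the 12 sites with a RUNX1 peak, for each SKI list; the axis is linear within 100 bp (shaded) and logarithmic beyond. All SKI summits at KDM6B and KDM4B lie within 12 bp, and those at the KDM4C promoter lie 451 to 1387 bp away.

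SKI fold enrichment at the joint sites of these genes did not differ in a stable direction from that at their other shared sites. Median SKI fold enrichment at the 8 joint and the 29 other sites was 57.2 and 56.7 in WT replicate 1, 15.8 and 18.5 in WT replicate 2, and 16.0 and 16.4 in control cells, and the ranges overlapped in every list. Over all protein-coding genes the medians with and without RUNX1 were 68.1 and 41.0, 15.2 and 10.9, and 19.0 and 11.1 in the same lists. For joint sites minus others the difference ranged from 7.81 to 11.5 in WT replicate 1, from -1.53 to 0.785 in WT replicate 2 and from 0.925 to 4.86 in control cells when 1 of the other SKI lists was left out. Of the joint sites 4 were of the TSS class, 2 exonic and 2 intronic (50% TSS, 21.5 to 78.5), whereas 21 of the 29 others were of the TSS class (72.4%, 54.3 to 85.3). The corresponding TSS shares for all protein-coding genes were 36.9% and 70.2%.

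Other genes of the same pathways, 64 listed by role, were counted in the same way. Of these 58 were named in the lists, 32 had a shared SKI site and 10 a joint site, where 35.9% of all protein-coding genes had a shared and 11.0% a joint one. Among other SWI/SNF subunits 8 of 15 named genes had a shared site, and joint sites lay at ARID1B, ARID2, PBRM1 and SS18. At the ARID2 site the RUNX1 peak and the strongest SKI peak of WT replicate 1 named LINC00938. The intronic PBRM1 site had a RUNX1 fold enrichment of 106, with SKI values of 82.93 and 20.05 in WT replicates 1 and 2 and 21.08 in control cells. Among other remodellers 7 of 11 had a shared site, INO80, EP400 and BPTF among them. None of these 11 had a RUNX1 peak, beside 17.1% of all protein-coding genes, and a difference was not tested. Other lysine methyltransferase genes had a shared site in 11 of 19 cases, EZH2 and KMT2A among them, with joint sites at KMT2E, EHMT2 and WHSC1. At the KMT2E site the RUNX1 peak and the strongest SKI peak of each list named LINC01004. At the EHMT2 site the RUNX1 peak named C2, as did the strongest SKI peaks of WT replicate 2 and control cells. Other JmjC and PHD genes had a shared site in 4 of 6 cases. The H3K9 and H3K27 demethylase gene JHDM1D (KDM7A) had 2 joint sites with RUNX1 fold enrichments of 43.02 and 12.39. Of 7 other acetyltransferase genes, EP300 and NCOA3 had a shared site and EP300 a joint one (RUNX1 fold enrichment 12.25).

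RefSeq holds 70 protein-coding symbols without a hyphen that match the rule. Of these 58 were in the lists under that symbol, KDM7A and BRD10 appeared under another one, and SETD8 is now KMT5A. No peak of the lists used here named the remaining 10, which were CHD1, KDM5A, SETD3, SMARCA1, KAT14, BRDT, BRD3OS, CHD9NB, KDM4E and KDM4F.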

How the data were processed

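Samples were grouped by title, and 4 peak lists from ChIP-seq in HL60 were analysed. Per the submitters' processing notes, Bowtie2 and MACS 1.4 were among the tools and hg19 the build. The control library of each ChIP is not given in the sources used here. Per the file headers, each deposited peak has a −log10 p-value, a fold enrichment (a ratio over background), a tag count, a position class and the next transcript with its distance. The headers give no base; it was read as 10 because all lists start near 5. The row index of the WT replicate 1 list skips numbers, so rows had been taken out by a step that is not given in the sources used here, which also bears on how that list compares with the others. The deposited FDR column was not used. The values of 1 of the genes are not reported here, though it is in the counts.

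SKI peaks that overlap by 1 bp or more were joined into sites. A site belongs to a gene when any of its SKI peaks names it, so peaks inside a gene that name another gene are not counted. The strongest peak of each list stands for a site. Members and gene lists were chosen with earlier results of these data known. The text names all joint sites, the 10 members with the best-ranked shared site without RUNX1, members with RUNX1 peaks, members with no shared site, and in each family the member with most shared sites; further members are given beside them for completeness. Intervals are 95% Wilson intervals. Joining and counting were tested on simulated lists. Promoters are from RefSeq, GRCh38.p14. The software was pandas 2.3.3 with numpy 2.4.6 under Python 3.11.15, and figures were drawn with matplotlib 3.10.9.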

Additional observations from a re-analysis of the deposited data

How the results depend on the processing

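Of the 66 alternative values, all planned, 8 reversed and 11 moved beyond the margin set for their kind, which was 1.5 times for a count, the Wilson interval for a share and the SD over the 3 SKI lists for a difference, and 47 did neither. Cutting every list to the same number of peaks moved every count of SKI sites: genes with a shared site came to 13, shared sites to 17, genes with a joint site to 3 and joint sites to 3, and the TSS share in WT replicate 1 to 64.3%. Leaving out 1 SKI list gave 26 to 32 genes and 40 to 47 sites shared, and 7 to 8 genes and 8 to 9 sites joint. The difference of median SKI fold enrichment, joint minus other shared sites, was near 0 and its sign was not stable. It was 0.495 in WT replicate 1, -2.73 in WT replicate 2 and -0.370 in control cells. At a −log10 p of at least 10 it was -3.72 in WT replicate 1. With the same number of peaks in every list, which leaves 3 joint sites, it was 8.50 in WT replicate 1, -3.29 in WT replicate 2 and 19.5 in control cells. Among TSS-class sites alone it was -11.4, -6.31 and -7.98 in WT replicate 1, WT replicate 2 and control cells, and among the other sites 12.1, 1.81 and 6.68, with 4 joint sites in each class. When 1 of the other lists was left out it was 7.81 to 11.5 in WT replicate 1, -1.53 to 0.785 in WT replicate 2 and 0.925 to 4.86 in control cells. The cause was not tested. RUNX1 has 1 list, so no RUNX1 list could be left out. Tags are unscaled and depth is unknown, so a peak missing from the shorter SKI lists is not shown to be absent there. No paired analysis was possible because WT and control SKI samples have only the number 1 in common.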
